A study of Mus musculus with 10 samples.

Results

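The genes described here are 46 genes of DNA replication and S phase, chosen by symbol from textbook function and found by exact match in the gene column of the deposited table, 46 of 48516 genes. The table gives FPKM, the fragments per kilobase of a transcript relative to library depth, in 10 libraries of polyadenylated RNA from mouse cells that the labels give as cultured. By the labels the cells derive from Ink4a.1, a pancreatic cancer line that was injected into the pancreas of FVB mice of a model named INK4.1syn_Luc, and from lines grown out of the liver metastases of such mice. Of the libraries, 5 are labelled as Ink4a liver metastasis and 5 as Ink4a primary tumour, the latter called primary below. Each group is numbered 25, 35, 36, 38 and 72, and all are labelled untreated and grown to 90% confluence. Libraries are named below by group and number, as in metastasis 72, and values are listed in the order of these numbers. The design text speaks of metastases from 4 mice and of the parental line, whereas the labels number 5 of each group. Neither says whether each primary sample came from its own animal or from a repeat culture, and the p-values therefore reflect only how far these samples scatter, which may be technical.

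A cell copies its DNA once per cycle. In G1, the origin recognition complex, Cdc6 and Cdt1 load the Mcm helicase ring onto origins, and at the start of S phase kinases together with Cdc45, the GINS complex and Mcm10 turn it into a working helicase. Polymerase alpha with primase starts each strand, polymerases epsilon and delta extend it on the sliding clamp Pcna, and nucleases and DNA ligase 1 join the pieces. Many of these genes are transcribed in a burst at the border of G1 and S phase under E2F transcription factors, which the retinoblastoma protein holds in check. In tumour cells the summed level of such genes is widely used as a measure of how much of a culture is cycling.

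The promoters of these genes were read for letters that E2F factors are known to bind, which shows what the genes share apart from function. RefSeq promoters (GRCm38.p6), from 250 bases before to 50 after the start, were present for 38 of the 46 genes. The E2F-type letters TTTCCCGC, TTTCGCGC, TTTGCCGC or TTTGGCGC stood on either strand in 16 of the 38 (42.1%). The same letters were found in 2.60% of 27025 genes with a promoter and in 4.79% of the 9069 of them that were expressed and tested here. The median GC content was 60.1% in the 38 promoters and 61.0% in the tested genes. Five-letter CCAAT boxes on either strand were in 22 of the 38 promoters (57.9%, against 43.0% of tested genes), and TTTGAA, the core of the element of many mitotic promoters, in 6 (15.8% against 14%). In 9 genes an E2F-type match lay wholly before the start. The 5 of these windows that overlap no annotated exon are shown on the strand of the gene, 60 bases each, with the matches in capitals. They belong to the licensing genes Cdc6, Mcm5 and Mcm6, the polymerase gene Pola1 and the chromatin gene Uhrf1.

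Cdc6, chr11:98907987-98908046, plus strand: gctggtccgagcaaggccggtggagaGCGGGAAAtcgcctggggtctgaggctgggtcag

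Mcm5, chr8:75109330-75109389, plus strand: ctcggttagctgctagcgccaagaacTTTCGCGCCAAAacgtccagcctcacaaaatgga

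Mcm6, chr1:128359782-128359841, minus strand: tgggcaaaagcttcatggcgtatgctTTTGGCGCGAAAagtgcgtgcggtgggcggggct

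Pola1, chrX:93632260-93632319, minus strand: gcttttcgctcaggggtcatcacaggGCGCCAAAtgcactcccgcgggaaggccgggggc

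Uhrf1, chr17:56304102-56304161, plus strand: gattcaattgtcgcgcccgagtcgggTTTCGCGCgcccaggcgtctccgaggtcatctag

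In Mcm5 and Mcm6 the capitals cover a pair of overlapping matches, 1 on each strand, and the stretches of the Cdc6 and Pola1 promoters hold their match on the strand opposite to the gene. The windows of Cdc6 and Uhrf1 lie inside the gene in GENCODE M21, between its exons, and the other 3 lie outside any annotated gene. A match is a description of the letters and not a site shown to be bound.

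**Figure D1:**
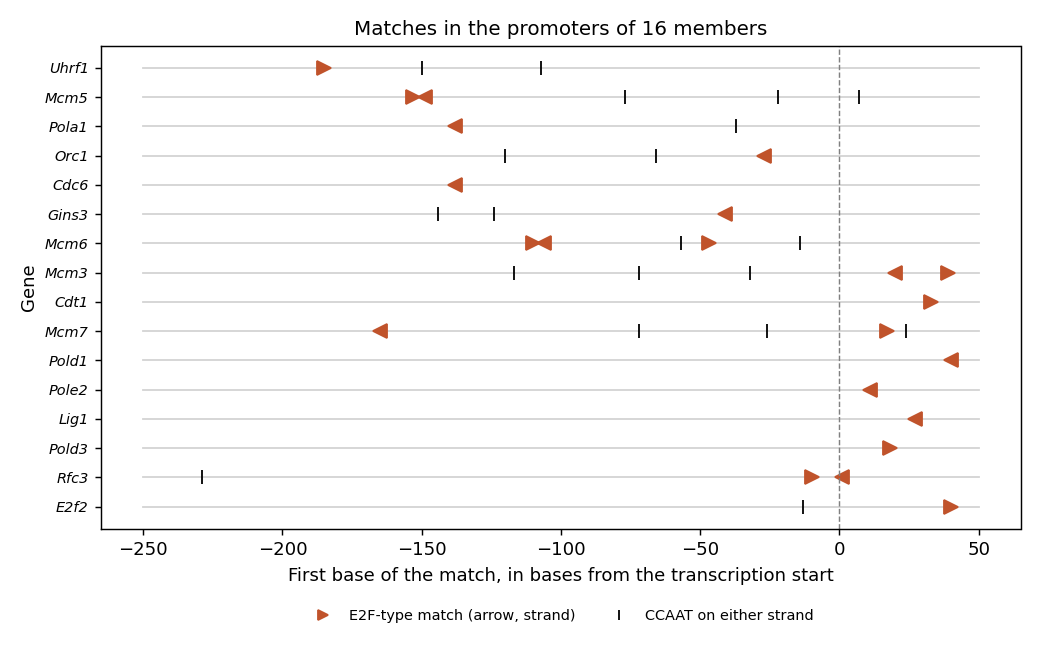
E2F-type matches (arrows, pointing along their strand) and CCAAT boxes (ticks) in the promoters of the 16 genes with an E2F-type match, by distance in bases from the RefSeq transcription start (dashed line). The matches lie on both sides of the start, and in Mcm5 and Mcm6 a pair of them overlaps.

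The libraries fell into 2 sets that cut across the groups, and this bears on every value below. Depth, read from the smallest steps between values, was 15.7 M fragments in metastasis 25 and 23.9 to 30.4 M in the other 9. For the 36 genes with an assigned transcript length, the lowest FPKM of each gene rested on an estimated 118 fragments or more. Metastasis 25 had fewer fragments per FPKM, so a value there can rest on fewer without being the lowest FPKM. Transcripts of macrophages and other leukocytes were near 0 in the 4 libraries of numbers 35 and 36 and plentiful in the 6 of numbers 25, 38 and 72, which goes against the label of a cultured tumour line for those 6. Whether they were tissue, early cultures or mixed cultures was not tested. The summed FPKM of 8 macrophage genes (Lyz2, C1qa and others) was 2.11 to 3.07 in the 4 libraries and 842 to 4703 in the 6. That of 8 general leukocyte genes was 3.91 to 7.42 against 141 to 913. All 8 markers of each list were higher in each of the 6 than in any of the 4, and 6 of 8 T cell markers were at 0 in all 4. Lists of other cell types did not all divide the libraries this way. The T cell sum of metastasis 25 (2.21 FPKM) lay within the range of the 4 (0.97 to 2.31), as did the hepatocyte sum of metastasis 38 (0.99 against 0.51 to 1.87), and skeletal muscle markers were higher in metastasis 36 (34.5) than in primary 25, primary 38 and metastasis 72 (8.25 to 8.97). Fibroblast markers summed to 571 to 727 FPKM in the 4 and 884 to 2291 in the 6. Single libraries held more, such as 20921 FPKM of hepatocyte, 29108 of erythroid and 11552 of neutrophil markers in metastasis 25, 7498 of skeletal muscle markers in metastasis 38 and 6414 of islet markers in primary 25. Epithelial markers, expected of a pancreatic carcinoma line, were present only in part. The 8 genes summed to 267 to 608 FPKM in the 4 and 87.4 to 757 in the 6, mostly through the keratins Krt8 and Krt18, while the adhesion genes Cdh1 and Epcam were at most 0.29 and 0.06 FPKM in the 4 libraries.

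All 46 genes were expressed above the minimum used for testing (1 FPKM in 5 of 10 libraries). Per transcript length, the highest mean level was that of Rrm1 (111 FPKM) and the lowest that of Orc1 (4.39 FPKM). The highest library exceeded the lowest by a median of 5.24-fold over the 46 genes and by at least 2-fold in 43. Uhrf1 spanned the widest range (10.9-fold, from 11.6 FPKM in metastasis 72 to 126 in primary 35) and Gins4 the narrowest (1.63-fold, from 12.4 to 20.2 FPKM). A total of 27 of the 46 genes were higher in each of the 4 libraries of numbers 35 and 36 than in any of the other 6. Of the 13152 genes tested, 24.0% showed that order. The reverse order was shown by 0 of the 46 genes and was not counted over all genes tested. The mean log2(FPKM + 1) of the 46 genes was 4.90 to 5.18 in the 4 libraries and 3.45 to 4.47 in the 6. The median difference of the 4 from the 6 was 1.12 on the log2 scale over the 46 genes and 0.065 over all genes tested. In a mixture of cells, fewer cycling cells and less of a transcript in each cell cannot be told apart, and the share of the difference that goes with the other cell types was not tested.

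**Figure D2:**
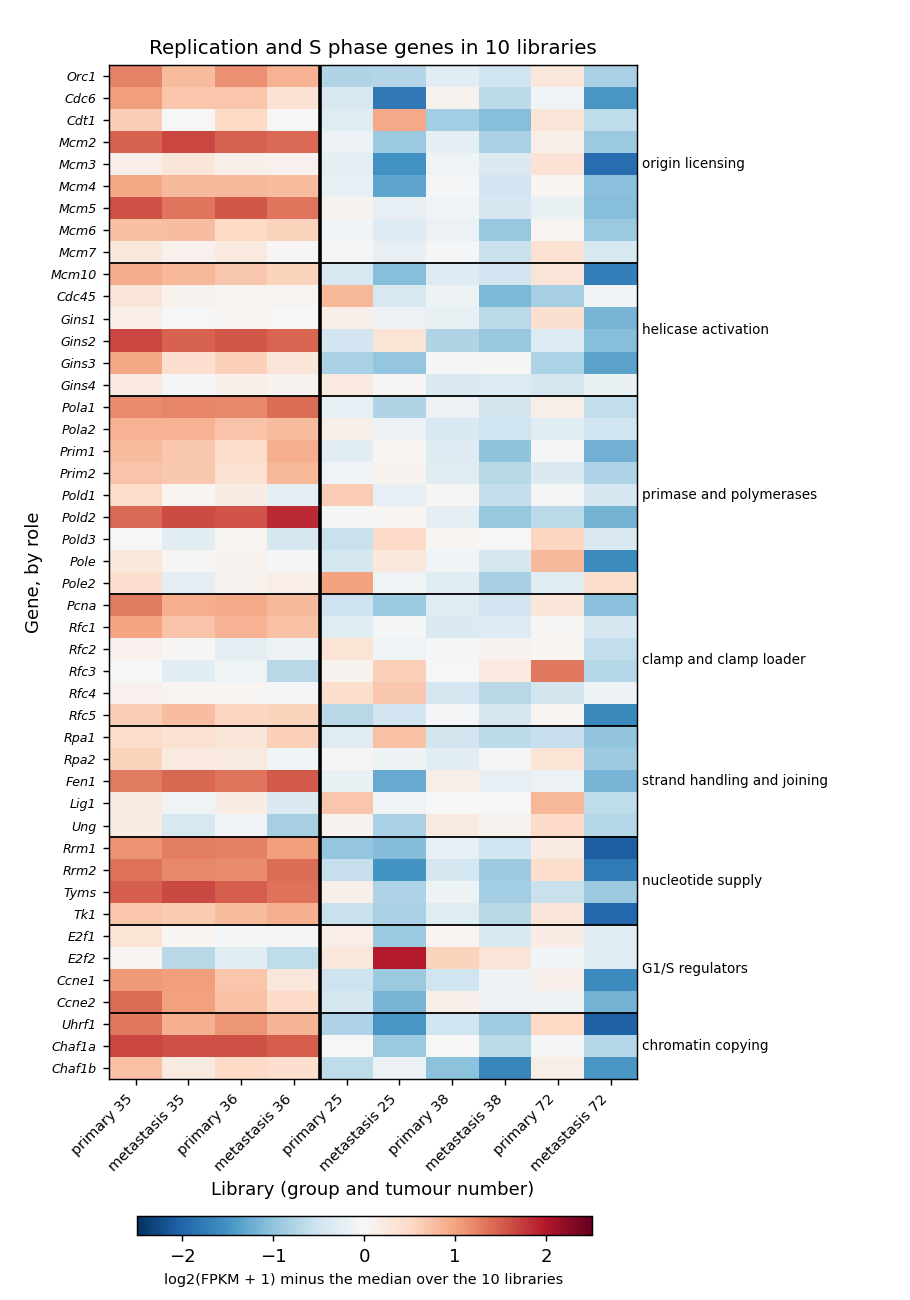
Level of each of the 46 genes (rows, by role) in the 10 libraries (columns), as log2(FPKM + 1) minus the median of the gene over the libraries, with red above and blue below that median. The 4 libraries of numbers 35 and 36 stand left of the vertical line and are mostly red, and metastasis 72 at the right edge is the lowest library for 26 genes.

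Metastasis was then compared with primary over all 10 libraries, which asks whether the replication genes are at another level in liver metastasis samples than in primary samples. The means of log2(FPKM + 1), which all group comparisons below use, were lower in metastasis for 43 of the 46 genes, against 48.6% of all genes tested, and 14 were lower in all 5 number pairs, against 2.09% of all genes. The median log2 fold change was -0.40 over the 46 genes (range -0.85 to 0.13) and 0.0075 over all genes tested. No single gene passed the test. In limma, with Benjamini-Hochberg adjustment across the 13152 genes tested, an adjusted p under 0.05 was reached by 0 of the 46 genes and 0.0% of all genes, with 0.9998 for each of the 46. The standard errors lay between 0.19 and 0.69. At an unadjusted p under 0.05 stood 3 of the 46 genes, all lower in metastasis (0.175% of all genes were so, and 31 genes in either direction). When the tumour number entered the fit as a block, 12 genes stood there (0.912% of all genes), again with 0 adjusted p under 0.05. The 12 genes were Ung, Lig1, Pold1, Cdc6, E2f1, Mcm4, Mcm5, Mcm7, Pcna, Ccne2, Uhrf1 and Chaf1a. With the correlation within numbers estimated instead (a random block in limma), 8 genes stood there, without Mcm4, Mcm5, Pcna, Ccne2, Uhrf1 and Chaf1a (unadjusted p from 0.0619 to 0.235) and with Mcm3 and Gins1 (0.0476 and 0.0364).

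Those 3 genes, Ung, Lig1 and Pold1, act on the newly made strand and are not among those that divide the libraries most. Ung, a glycosylase that removes uracil from DNA, was at 6.62, 7.30, 5.76, 7.41 and 8.96 FPKM in the primary libraries and at 3.11, 4.45, 3.03, 6.60 and 3.40 in the metastasis libraries. All primary values but 1 lay above the metastasis values, the exception being primary 36, which was below metastasis 38. The means were 7.21 ± 1.18 and 4.12 ± 1.50 FPKM (SD, n = 5 each), with a log2 fold change of -0.71 (SE 0.24; limma, unadjusted p = 0.0130). Ung (ENSMUSG00000029591.14) lies on chromosome 5 from 114130386 to 114139323 in GRCm38.

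Lig1 (ENSMUSG00000056394.17, chromosome 7, 13277283 to 13311433), the ligase that seals Okazaki fragments, was at 47.4, 34.2, 33.3, 29.2 and 52.4 FPKM in primary and at 27.6, 27.1, 22.2, 28.6 and 18.3 in metastasis. Its metastasis values all lay below all its primary values, though primary 38 and metastasis 38 differed by 0.03 on the log2 scale. How many of all genes tested were separated in this way was not counted. Its log2 fold change was -0.63 (SE 0.22; limma, unadjusted p = 0.0157). Pold1 (ENSMUSG00000038644.14, chromosome 7, 44532746 to 44548849), the catalytic subunit of polymerase delta, was at 34.8, 30.7, 25.4, 22.5 and 21.7 FPKM in primary and 19.1, 22.8, 18.8, 14.3 and 16.1 in metastasis. The groups overlapped only through metastasis 35, which lay above primary 38 and primary 72. Its pair differences were the most even of the 3 genes, from -0.84 to -0.41 (log2 fold change -0.54, SE 0.20; limma, unadjusted p = 0.0235).

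**Figure D3:**
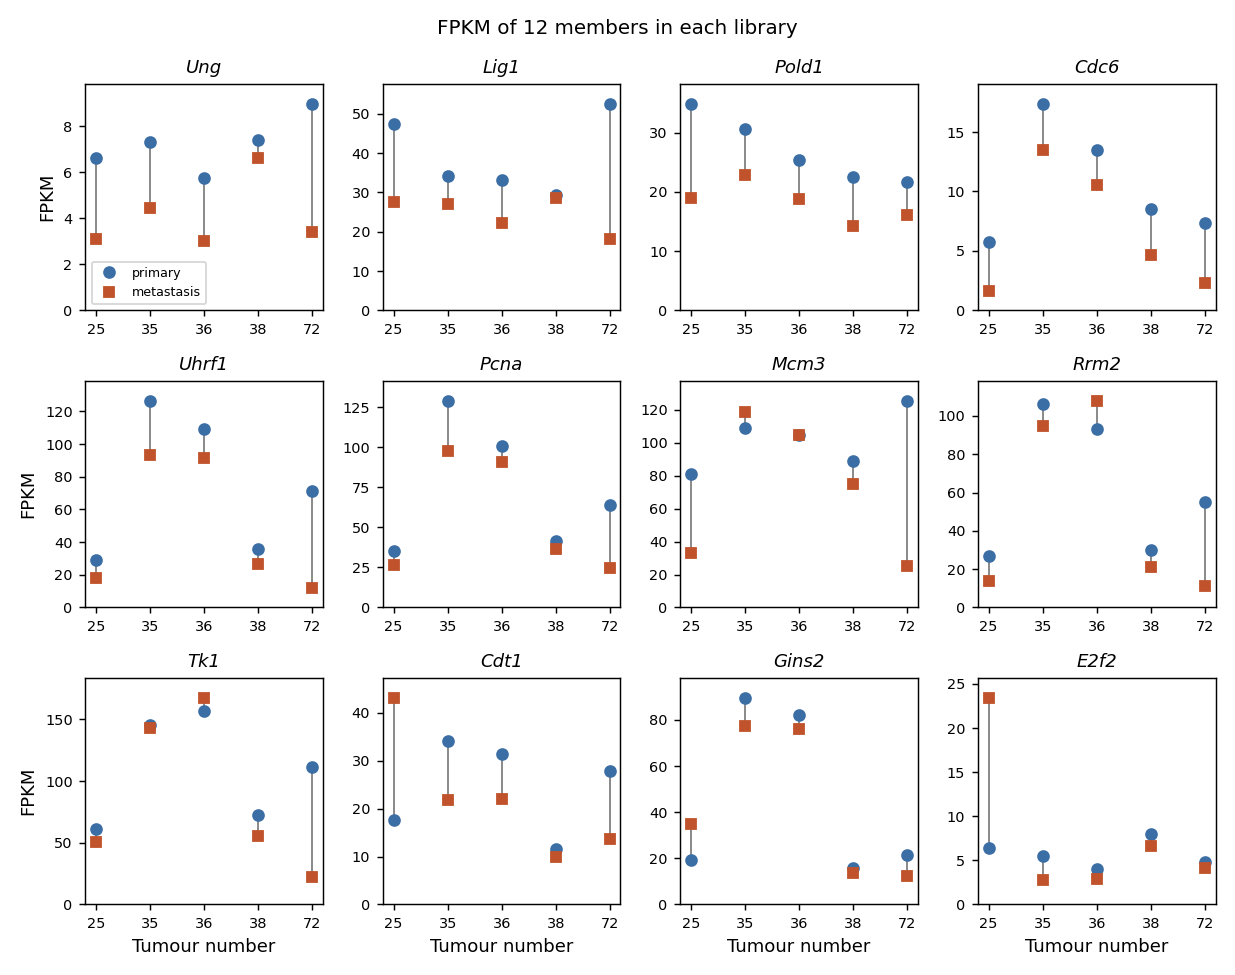
FPKM of 12 genes in each library, with primary (blue circles) and metastasis (orange squares) of the same tumour number joined by a line, and each vertical axis starting at 0. In Ung, Lig1 and Pold1 the metastasis value is lower in every pair, and numbers 35 and 36 do not stand above the others. Uhrf1, Pcna, Rrm2 and Gins2 are highest in both libraries of numbers 35 and 36. The gap is widest in number 72 for Ung, Lig1, Uhrf1, Pcna and Rrm2, but not for Pold1 and Gins2.

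Among the 9 origin licensing genes all means were lower in metastasis, by a median of 0.40 on the log2 scale, 4 of them in all 5 pairs, and none passed the test. Cdc6 (ENSMUSG00000017499.15, chromosome 11, 98907801 to 98923940), the ATPase that loads the helicase with the origin recognition complex, was at 5.73, 17.3, 13.4, 8.55 and 7.38 FPKM in primary and at 1.60, 13.5, 10.5, 4.65 and 2.28 in metastasis. Each metastasis value was below its own partner, yet the metastasis libraries of numbers 35 and 36 stood above all 3 primary libraries of numbers 25, 38 and 72. The log2 fold change was -0.83 (SE 0.51; limma, unadjusted p = 0.132, and 0.00856 with the block). Orc1, the largest subunit of the origin recognition complex, was at 1.52, 9.09, 8.36, 2.49 and 4.21 FPKM in primary and 1.57, 6.43, 6.82, 2.01 and 1.43 in metastasis, so that the numbers 35 and 36 stood apart from the rest in both groups.

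Cdt1, the loading factor that geminin inhibits, did not keep to that pattern. Its level was 17.6, 34.0, 31.4, 11.6 and 27.9 FPKM in primary and 43.1, 21.8, 22.1, 9.89 and 13.7 in metastasis. It was thus lower in 4 metastasis libraries than in their partners and highest of all in metastasis 25. Metastasis 25 is also the library with the erythroid, hepatocyte and neutrophil transcripts, and their part in this value was not tested.

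The Mcm2 to Mcm7 genes encode the 6 subunits of a helicase ring, yet their profiles were not alike. Mcm2 was at 88.1 to 105 FPKM in numbers 35 and 36 and at 16.4 to 35.5 FPKM in the other 6 libraries, with no overlap. Mcm7 varied only from 21.8 to 42.4 FPKM over all 10 libraries. Its values were 31.9, 39.7, 38.4, 31.6 and 42.4 FPKM in primary and 28.1, 35.2, 33.2, 21.8 and 24.3 in metastasis, lower in all 5 pairs (log2 fold change -0.37, SE 0.19; limma, unadjusted p = 0.0802). Mcm3, the most abundant licensing gene, was at 81.3, 109, 105, 89.2 and 125 FPKM in primary and 33.3, 119, 105, 75.3 and 25.0 in metastasis. Its low values were those of metastasis 25 and 72, and the other 8 libraries lay within 75.3 to 125 FPKM. Mcm6 followed the mean of the 46 genes most closely, with an SD of 0.17 of its distance from that mean over the libraries.

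Helicase activation genes, 6 in number, also had lower means in metastasis, with a median of -0.31. Mcm10, a factor that helps the helicase to start, was at 9.45, 25.2, 21.0, 9.92 and 16.2 FPKM in primary and 5.58, 23.5, 19.0, 8.87 and 3.19 in metastasis. It was lower in every pair, by 0.10 to 0.15 on the log2 scale in numbers 35, 36 and 38 and by 2.04 in number 72. The 4 GINS subunits form 1 complex, but among them Gins2 divided the libraries most and Gins4 least. The 4 libraries of numbers 35 and 36 differed from the other 6 by 2.08 and 0.28 on the log2 scale. In the range between libraries, Gins3 (7.35-fold) was slightly above Gins2 (7.14-fold). Gins2 was at 19.4, 89.4, 82.1, 15.9 and 21.4 FPKM in primary and 34.7, 77.3, 76.0, 13.7 and 12.5 in metastasis. Gins4 was at 20.2, 20.0, 18.6, 12.9 and 12.4 FPKM in primary and 17.1, 16.6, 17.8, 13.0 and 14.9 in metastasis, with almost no division of the libraries. Gins1 was at 14.6, 15.0, 13.8, 11.6 and 17.9 FPKM in primary and 11.9, 13.3, 13.2, 7.91 and 5.40 in metastasis, lower in all 5 pairs (log2 fold change -0.51, SE 0.26; limma, unadjusted p = 0.0818).

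The 9 primase and polymerase genes had the smallest median of any role, -0.23, with Pold1 as the 1 gene lower in all 5 pairs. The accessory subunit of polymerase delta had another profile than the catalytic one. Pold2 was at 40.9, 114, 127, 35.5 and 26.1 FPKM in primary and 43.4, 133, 156, 21.4 and 17.9 in metastasis. Its mean was lower in metastasis on the log2 scale (-0.12, SE 0.69) and higher in FPKM (74.5 against 68.7). Its 4 values in numbers 35 and 36 were all above the other 6, and metastasis was the higher partner in numbers 25, 35 and 36. Another accessory subunit, Pold3, was higher in metastasis 25 than in primary 25 (28.3 against 13.3 FPKM) and lower in the other 4 pairs. The catalytic subunit of polymerase epsilon, Pole, was also higher in metastasis 25 (19.4 against 11.4 FPKM), while metastasis 72 held 4.60 FPKM against 28.6 in primary 72.

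Of the 6 clamp and clamp loader genes 5 had lower means in metastasis, and the role's median was -0.26. Pcna, the sliding clamp, was at 35.5, 129, 101, 41.2 and 64.0 FPKM in primary and 26.5, 97.6, 90.6, 36.6 and 24.5 in metastasis. It was lower in all 5 pairs, by 0.15 to 1.35 on the log2 scale, with the 4 libraries of numbers 35 and 36 above all others. Rfc3, a small subunit of the loader that opens the clamp, differed from it, at 31.9, 30.2, 27.6, 29.5 and 76.2 FPKM in primary and 45.6, 24.3, 18.1, 35.4 and 17.9 in metastasis. The primary libraries lay close together except for primary 72. Rfc4, with Rpa1 and E2f2, was 1 of the 3 genes with a higher mean of log2(FPKM + 1) in metastasis (log2 fold change 0.05, SE 0.28).

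Strand handling genes other than Ung and Lig1 gave mixed values. Rpa1, the large subunit of the protein that coats single-stranded DNA, was at 34.5, 58.6, 52.6, 30.9 and 28.2 FPKM in primary and 71.9, 55.7, 64.5, 26.7 and 21.1 in metastasis. Its log2 fold change of 0.13 (SE 0.38) rested on metastasis 25 and turned to -0.05 without it. It was also -0.01 without metastasis 36. Fen1, the nuclease that trims Okazaki fragments, was higher in the 4 libraries of numbers 35 and 36 (56.0 to 65.4 FPKM) than in the other 6 (8.68 to 24.6 FPKM).

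The 4 genes of nucleotide supply divided the libraries most, with a median difference of 1.98 on the log2 scale between the 4 libraries of numbers 35 and 36 and the other 6, and all 4 had the order of higher in each of the 4. Rrm1, the large subunit of ribonucleotide reductase, was at 43.2, 187, 205, 74.2 and 98.0 FPKM in primary and 40.0, 208, 178, 60.5 and 19.7 in metastasis. Its small S phase subunit Rrm2 was at 27.0, 106, 93.3, 29.8 and 55.0 FPKM in primary and 13.7, 94.5, 108, 21.1 and 11.2 in metastasis. Metastasis was clearly below primary in number 72 for both, while in numbers 35 and 36 either partner was the higher one. Tyms, thymidylate synthase, and Tk1, thymidine kinase 1, had the same order of libraries, with 112 to 137 and 143 to 167 FPKM in the 4 libraries against 22.3 to 46.6 and 22.3 to 111 in the 6. The log2 fold changes of the 4 genes, -0.71 to -0.40, had standard errors of 0.53 to 0.69.

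Of the 4 regulators of the G1 to S transition, 3 had lower means in metastasis (median -0.45). E2f1, an activator of the genes above, was at 24.9, 28.1, 21.4, 23.0 and 25.1 FPKM in primary and 11.2, 22.7, 21.3, 16.6 and 18.2 in metastasis. It was lower in all 5 pairs, though only by 0.01 in number 36 (log2 fold change -0.46, SE 0.21; limma, unadjusted p = 0.0551, and 0.0428 with the block). Ccne2, a cyclin E gene whose product drives S phase entry, was at 4.64, 19.2, 11.7, 7.42 and 6.03 FPKM in primary and 2.45, 14.7, 9.64, 5.90 and 2.40 in metastasis. E2f2, a related activator, was at 6.42, 5.44, 4.00, 8.02 and 4.83 FPKM in primary and 23.4, 2.80, 2.94, 6.63 and 4.12 in metastasis. Its value in metastasis 25 was the highest by far, its other 4 pairs were lower in metastasis, and its profile relative to the mean of the 46 genes varied most (SD 1.14).

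Chromatin copying genes had lower means in metastasis in 3 of 3 cases. Uhrf1 (ENSMUSG00000001228.14, chromosome 17, 56303321 to 56323486), which recognises hemimethylated DNA and brings the maintenance methyltransferase to it, was at 29.0, 126, 109, 35.5 and 71.0 FPKM in primary and 17.7, 93.4, 91.5, 26.8 and 11.6 in metastasis. It was lower in all 5 pairs and had the largest fold change of the 46 genes (-0.85, SE 0.65; limma, unadjusted p = 0.215, 0.0415 with the fixed block and 0.0619 with the random one). Chaf1a and Chaf1b, subunits of the factor that deposits histones behind the fork, had log2 fold changes of -0.48 (SE 0.63) and -0.46 (SE 0.49).

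The differences were uneven between pairs. The median over the 46 genes was -0.27 in number 25, -0.19 in 35, -0.10 in 36, -0.33 in 38 and -1.01 in 72. Between 31 and 42 genes were lower in metastasis in each pair, where 45.2% to 50.2% of all genes tested were. In number 72, 23 genes were lower by more than 1 on the log2 scale, the widest gap being that of Uhrf1 (-2.51), and 4 were higher, Cdc45, Gins4, Pole2 and Rfc4. In number 25 the genes went both ways, with 7 lower by more than 1 (Cdc6, Mcm3, Mcm4, Cdc45, Pole2, Fen1 and E2f1) and 4 higher by more than 1 (E2f2, Cdt1, Pold3 and Rpa1). How many of all genes tested differed by more than 1 in these numbers was not counted. Without metastasis 72 the median log2 fold change over the 46 genes was -0.17, with 36 lower, and it was -0.23 without primary 35. Leukocyte markers moved with some pairs and not with others. Their sum was higher in metastasis than in primary in number 38 (913 against 357 FPKM) and number 72 (351 against 180) and lower in number 25 (141 against 516), and their part in the pair differences was not tested.

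**Figure D4:**
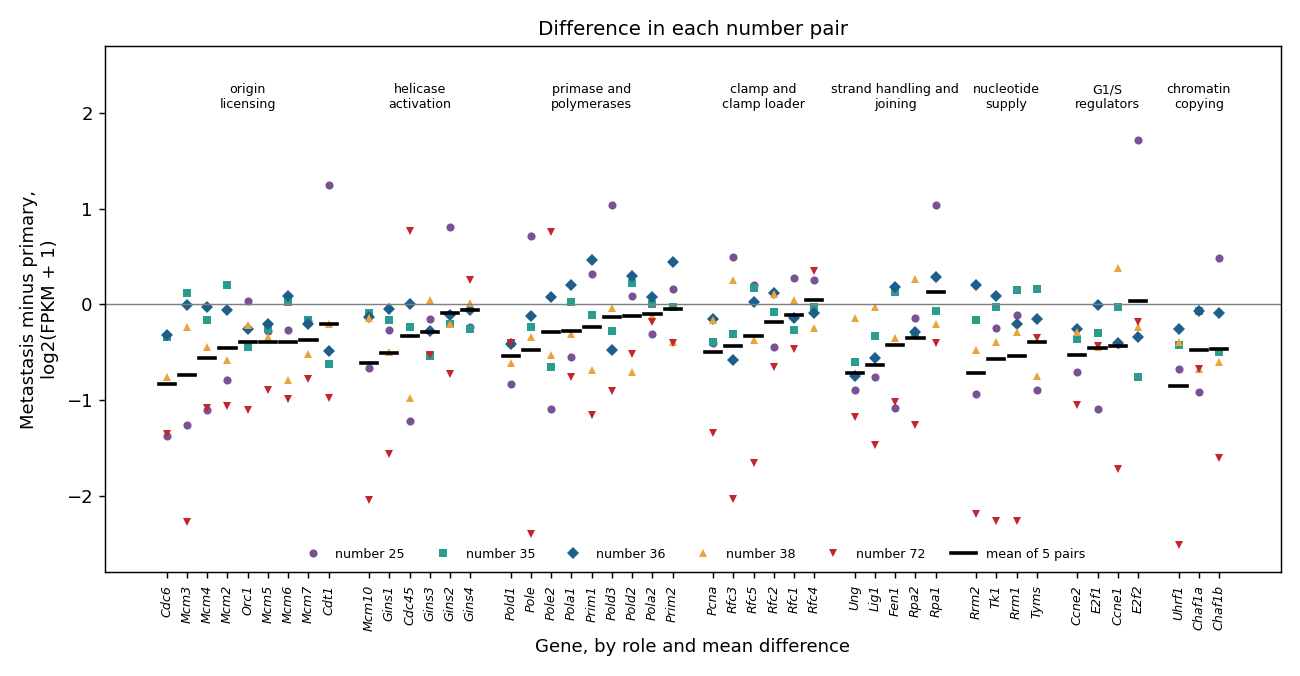
Difference of metastasis from primary in log2(FPKM + 1) for each of the 46 genes in each of the 5 number pairs, grouped by role and ordered by the mean of the pairs (black bars). The pairs of numbers 35 and 36 (squares and diamonds) have an SD over the genes of 0.24 and 0.26, those of number 72 (red triangles) reach -2.51, and those of number 25 (circles) spread from -1.37 to 1.72.

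In numbers 35 and 36, the libraries with almost no leukocyte markers, samples of a group lay close together. The median SD of the 46 genes on the log2 scale was 0.11 for the primary pair and 0.12 for the metastasis pair. The full groups of 5 gave 0.59 and 0.89, which include the difference between the sets of libraries. The SD within numbers 25, 38 and 72 alone was not computed. The groups were compared within the 4 libraries of numbers 35 and 36, a choice made with the division known. The median log2 fold change was -0.16 over the 46 genes and 0.013 over all genes, and 29 genes were lower in both pairs, as were 23.9% of all genes. Higher in both pairs were 6 genes, Mcm6, Pola1, Pola2, Pold2, Rfc5 and Fen1. No gene passed the test (limma, smallest adjusted p of the 46 genes 0.722). At an unadjusted p under 0.05 stood 8 genes, all lower in metastasis (2.66% of all genes were so): Cdt1, Mcm5, Orc1, Pold3, Lig1, Ung, E2f2 and Uhrf1. Cdt1 was at -0.56 (SE 0.08) and Mcm5, the gene with the smallest SE of the 46 there, at -0.23 (SE 0.06). Ung was at -0.68 (SE 0.22) and Lig1 at -0.45 (SE 0.12) in these libraries. Over all 10 libraries, which include these 4, they were at -0.71 and -0.63. The nucleotide supply genes lay near 0 there, at -0.02 for Rrm1, 0.02 for Rrm2, 0.01 for Tyms and 0.03 for Tk1, with standard errors of 0.11 to 0.12. In numbers 25, 38 and 72 the median was -0.58 over the 46 genes and 0.0068 over all genes. There 40 of the 46 genes were lower, again with no adjusted p under 0.05 (limma, smallest 0.999). How many of all genes tested were lower in these numbers was not counted. Whether the fold changes differed between these sets of numbers was not tested.

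**Figure D5:**
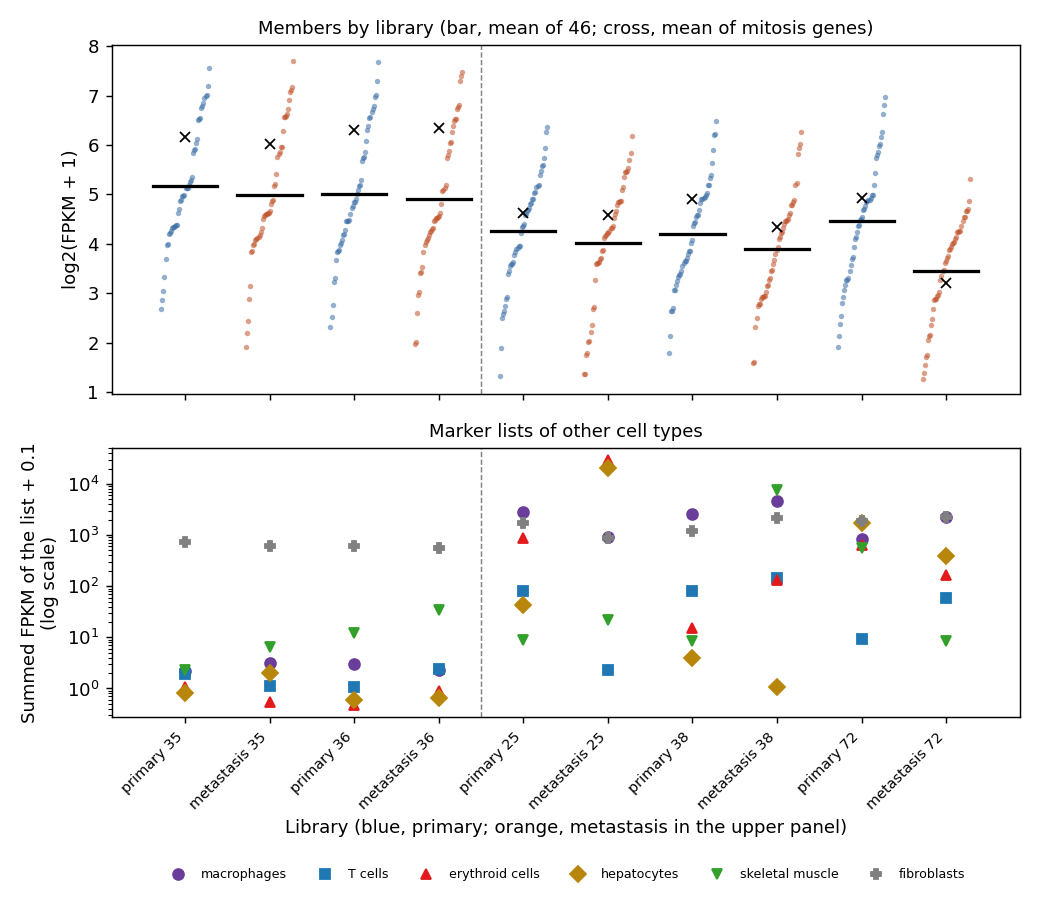
Upper panel, log2(FPKM + 1) of the 46 genes in each library (points), with their mean (bar) and the mean of 20 mitosis genes (cross). Lower panel, summed FPKM of 6 marker lists of other cell types plus 0.1, on a log scale. Macrophage markers are at 2.11 to 3.07 FPKM left of the dashed line, where the replication genes are highest, and at 842 to 4703 right of it.

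Genes of the surrounding pathways were also without a call (limma, 0 adjusted p under 0.05 in each list). Of 40 further replication genes 36 had lower means in metastasis and 4 higher means, with a median of -0.37, and 8 were lower in all 5 pairs. Among all genes tested, 48.6% had lower means and 2.09% were lower in all 5 pairs. Timeless, which protects stalled forks, was at 7.53, 14.1, 12.1, 9.24 and 15.8 FPKM in primary and 6.53, 8.58, 9.41, 8.53 and 2.90 in metastasis (log2 fold change -0.68, SE 0.32). Msh6, of mismatch repair, had -0.69 (SE 0.40), and geminin (Gmnn), the inhibitor of Cdt1, had -0.41 (SE 0.26). Orc4, another subunit of the origin recognition complex, was the 1 gene of the 40 higher in all 5 pairs, where 310 of the 13152 genes tested were. Its level was 19.7 ± 2.43 FPKM in primary and 26.0 ± 5.51 in metastasis (SD, n = 5 each), with a log2 fold change of 0.37 (SE 0.19).

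Of 24 genes of the Rb and E2F families and their kinases and inhibitors, 21 were above the expression minimum, 16 with lower and 5 with higher means (median -0.10). The lowest unadjusted p was that of Cdkn2d, an inhibitor of Cdk4 and Cdk6 (-0.43, SE 0.18; limma, unadjusted p = 0.0371). Cyclin D1 (Ccnd1), the partner of those kinases, was at 638 to 767 FPKM in numbers 35 and 36 and 81.6 to 414 in the other 6. Its log2 fold change was -0.68 (SE 0.59), that of Cdk6 -0.35 (SE 0.30) and that of the pocket protein gene Rbl1 -0.52 (SE 0.48). Tfdp2, a dimerisation partner of the E2F factors, was at 34.2 FPKM in metastasis 25 and at 2.60 to 7.32 in the other 9 libraries, so that it and E2f2 were both highest in that library. Cdkn2a and Cdkn2b, whose products include the Cdk4 and Cdk6 inhibitors p16INK4A and p15INK4B, were below the expression minimum, listed at 0 in the 4 libraries of numbers 35 and 36 and at most 3.35 and 4.87 FPKM in the other 6.

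Mitosis genes had lower means in metastasis in 20 of 20 cases (median -0.46), against 48.6% of all genes tested. Of them, 3 were lower in all 5 pairs, against 2.09% of all genes. The drop was uneven between pairs. The median was -0.07 in number 25, -0.11 in 35, 0.06 in 36, -0.56 in 38 and -1.70 in 72. All 20 mitosis genes were lower in numbers 38 and 72, and 10, 14 and 7 were in numbers 25, 35 and 36. Their division of the libraries was wider than that of the replication genes, with a median difference of 1.78 between the 4 libraries of numbers 35 and 36 and the other 6, and 16 of 20 were higher in each of the 4. Mki67, a marker of cycling cells, was at 86.4 to 103 FPKM in the 4 and 8.47 to 38.1 in the 6. The log2 fold changes were -0.44 (SE 0.67) for Mki67, -0.80 (SE 0.52) for the topoisomerase gene Top2a and -0.85 (SE 0.46) for the kinesin gene Cenpe. They were -0.61 (SE 0.57) for Cdc20, an activator of the anaphase-promoting complex, and -0.60 (SE 0.61) for the kinase gene Aurkb.

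The promoter letters were also set beside the levels. The 16 genes with an E2F-type match had a median difference of 0.67 on the log2 scale between the 4 libraries of numbers 35 and 36 and the other 6, and 7 of them were higher in each of the 4. The 22 genes without one had a median of 1.31, with 16 higher in each of the 4. The median log2 fold change of metastasis against primary was -0.39 with a match and -0.43 without. Lig1 and Pold1 have a match after the start, and Ung has none in this window, although it was lower in all 5 pairs as well.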

How the data were processed

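RNA of 10 libraries was sequenced after polyA selection (per the labels' protocols), and the authors deposited FPKM values in 1 table. Salmon, edgeR and the build mm8 are named in the submitters' processing notes without role or version. Which program made the FPKM is not given in the sources that were used. Of the gene identifiers, 40685 occur with the same version in GENCODE M21, 61.9% of these at the same locus and 99.8% inside it, so coordinates are for GRCm38 and count from 1. Genes overlapping others, or with near-identical copies, are uncertain.

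Values were used as log2(FPKM + 1), which understates changes of low genes. A gene needed 1 FPKM in 5 or more libraries, which kept 13152. The group test was limma 3.58.1 under R 4.3.3 (moderated, two-sided, Benjamini-Hochberg adjustment, variance trended on intensity), with statmod 1.5.0 for the random block, checked on simulated data. Figures used Python 3.11.15 and matplotlib 3.10.9. Depth was estimated from 742 single-exon genes, assuming FPKM relative to the library's own total. The FPKM sum was 939415 in metastasis 25 and 563509 to 653161 in the other 9. An exact 0 can be a failed estimate, and replacing 21 single zeros was an alternative.

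The labels give both groups the same numbers, and these were treated as pairing the samples, with the block as an alternative. Deviations from the group means correlated within numbers at 0.39, 0.86, 0.89, 0.68 and 0.23 (numbers 25, 35, 36, 38 and 72). Metastasis 25, 35 and 72 correlated best with primary 72, 36 and 25, which are in the same set of libraries. The correlations therefore cannot show a pairing by number. Other alternatives were the pseudocount (0.1), the expression minimum, scaling, the variance model, sample weights, and leaving out libraries or numbers.

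The 46 genes, the pathway and marker lists and the division by number were chosen with earlier results of these data known. Genes given values in every library are those lower in all 5 pairs (the 8 with the smallest p), those with the highest mean and the largest change in each role, and the extremes of level and range. From each pathway list the 4 with the smallest p were named. Other genes, such as Cdt1, E2f2, Mcm2, Rfc3, Tfdp2, Cdkn2a and Fen1, were named after their values were seen.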

Additional observations from a re-analysis of the deposited data

Results flagged for a closer look

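Rfc3, the clamp loader gene, stood out in the primary group because 1 library lay far from the rest. Its log2(FPKM + 1) was 6.2708 in primary 72 and 5.04 in the next highest primary library, a gap of 0.858 of the whole range of the 5 values (above 0.71, the critical value for 5 samples). Among 94 groups examined (46 genes and their mean, in each group) this was 1. Chance alone flags about 1 group in 20, or 4.7 of the 94, which is more than the 1 found. The pair difference of Rfc3 in number 72 was -2.03, where metastasis 72 was also the lowest of the 10 libraries (17.9 FPKM).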

How the results depend on the processing

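Under 23 alternatives 0 of the 46 genes had a limma adjusted p under 0.05, and the median log2 fold change stayed below 0, between -0.59 and -0.16. The numbers were treated as pairing the samples, so the replicate block bears on the counts. Metastasis 25, 35 and 72 correlated best with primary libraries of other numbers, so the pairing is not settled by the data. At an unadjusted p under 0.05 the count of lower genes, 3, was 12 with the number as a fixed block and 8 as a random one (0.730% of all genes), 5 without an expression minimum (0.361%), with quantile normalization (0.167%) or scaled to the FPKM sum (0.228%), 8 in numbers 35 and 36 (2.66%) and 9 in numbers 25, 38 and 72 (0.646%). It ranged from 2 to 6 when each library was left out, 6 without metastasis 35, and was 1 without number 72, a setting added after the data had been seen. The 14 genes lower in all pairs became 29 over the 2 pairs of numbers 35 and 36, where 23.9% of all genes were lower. Over the other 3 pairs the count was 24, and all genes were not counted there. Both counts ask for fewer pairs. Of 437 values of the 19 named genes, 20 changed sign. With each library left out in turn, Pold2 ranged from -0.52 to 0.24 (above 0 without primary 35 or 36 or metastasis 38 or 72), Gins2 from -0.39 to 0.25 (above 0 without the same 4), Gins4 from -0.15 to 0.013 (above 0 without primary 25 or 35 or metastasis 38) and Rpa1 from -0.051 to 0.38 (below 0 without metastasis 25 or 36). With sample weights Pold2 was 0.0863 and Gins2 0.0221, and scaled to the FPKM sum Rpa1 was -0.0067. In numbers 35 and 36 Mcm3 was 0.0583, Rrm2 0.0200 and Pold2 0.26, and in numbers 25, 38 and 72 Gins4 was 0.00871. The causes were not tested. Scaling to the FPKM sum moved the median of all genes to -0.12 and that of the 46 genes to -0.54. Counting error could be judged for 36 of the 46 genes, with an estimated 118 fragments or more behind the lowest FPKM of each. Values of metastasis 25, at its lower depth, can rest on fewer fragments, which were not counted there.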
